A study of Mus musculus with 16 samples.

Results

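AP-1, BATF and IRF4 transcription factors were followed here as transcripts in CD8 T cells sorted from mouse mammary tumours. The group holds 9 genes, chosen by symbol from the 24028 genes of the deposited count table: Fos, Fosb and Fosl2 of the FOS family, Jun, Junb and Jund of the JUN family, the related factors Batf and Batf3, and the interferon regulatory factor Irf4. All 9 were found, and 9 of 9 were among the 17414 genes that passed the filter on low counts. TS/A cells, a mouse mammary adenocarcinoma line, were grown in the second mammary pad of BALB/c mice, which from day 7 after injection received either vehicle or entinostat every day. Entinostat (ENT) is an inhibitor of class I histone deacetylases, given at 20 mg/kg. Tumours were taken at day 10 or day 17, and cells that were negative for a dead cell dye and for CD4 and positive for CD45.2 and CD8 were sorted. This gave 4 groups of 4 libraries: vehicle at day 10, entinostat at day 10, vehicle at day 17 and entinostat at day 17. The labels give neither the mice's age nor whether tumours were pooled, and they do not state that each library stands for its own mouse. P-values therefore refer to the spread among libraries, part of which may be technical.

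AP-1 is a dimer of leucine zipper proteins. FOS proteins cannot pair with themselves and bind DNA as partners of JUN proteins, whereas JUN proteins also pair with one another. Antigen receptor signals, carried by the MAP kinases, calcineurin and NF-kB, switch on FOS and JUN genes within minutes in T cells. BATF and BATF3 pair with JUN proteins in place of FOS proteins, and BATF with JUN recruits IRF4 to composite DNA sites that T cells use in effector differentiation. IRF4 itself is made in proportion to the strength of the antigen receptor signal.

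The promoters of Fosl2, Jun, Jund and Batf are shown because these 4 genes carried the edgeR calls between drugs or days that are described next. Each window runs from 250 bases before to 50 bases after the RefSeq start site in GRCm38.p6, 5′ to 3′ on the gene's own strand. Capitals mark any match on either strand to 6 short motifs: the AP-1 site TGANTCA, the CRE or Jun type site TGACNTCA, the CRE core TGACG, the GC box GGGCGG, the CCAAT box CCAAT and the TATA box TATAAA.
Fosl2 promoter, chr5:32136222-32136521, plus strand: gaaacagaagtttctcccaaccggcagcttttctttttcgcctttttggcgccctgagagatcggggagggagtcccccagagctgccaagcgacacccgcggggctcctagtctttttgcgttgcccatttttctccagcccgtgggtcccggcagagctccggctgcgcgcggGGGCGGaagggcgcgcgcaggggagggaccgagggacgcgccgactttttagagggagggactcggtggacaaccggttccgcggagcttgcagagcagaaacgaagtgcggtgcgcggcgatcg
Jun promoter, chr4:95052173-95052472, minus strand: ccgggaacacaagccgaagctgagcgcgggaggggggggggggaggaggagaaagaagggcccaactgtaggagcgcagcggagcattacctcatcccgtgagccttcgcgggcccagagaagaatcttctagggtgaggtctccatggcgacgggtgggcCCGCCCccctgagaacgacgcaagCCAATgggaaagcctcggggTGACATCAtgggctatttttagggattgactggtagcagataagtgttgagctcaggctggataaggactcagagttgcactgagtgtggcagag
Jund promoter, chr8:70697489-70697788, plus strand: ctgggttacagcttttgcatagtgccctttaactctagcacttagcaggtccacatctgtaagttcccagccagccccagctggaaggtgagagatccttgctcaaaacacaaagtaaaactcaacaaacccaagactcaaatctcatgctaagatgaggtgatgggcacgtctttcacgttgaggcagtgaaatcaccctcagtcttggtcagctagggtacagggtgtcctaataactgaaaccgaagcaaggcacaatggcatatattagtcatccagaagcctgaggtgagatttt
Batf promoter, chr12:85686470-85686769, plus strand: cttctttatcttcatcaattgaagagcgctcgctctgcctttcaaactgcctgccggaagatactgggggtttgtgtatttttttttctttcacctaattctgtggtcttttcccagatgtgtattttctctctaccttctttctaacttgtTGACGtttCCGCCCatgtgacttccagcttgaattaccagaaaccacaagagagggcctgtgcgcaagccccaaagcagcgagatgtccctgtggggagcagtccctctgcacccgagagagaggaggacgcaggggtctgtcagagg
The Fosl2 window held 1 GC box, first base 75 bases before the start, and no other motif of the 6. In the Jun window, TGACATCA lay 45 bases, a CCAAT box 65 bases and a reversed GC box 89 bases before the start. The Jund window held none of the 6. For Jund the RefSeq gene spanned 2878 bases, against 1668 bases of annotated exon, so this window may lie away from the start used in these cells. Which start is used was not tested. The Batf window held a CRE core 98 bases and a reversed GC box 90 bases before the start. None of the 9 members' windows held TGANTCA. Among all 32851 RefSeq windows of this length, 7.81% held TGANTCA, 8.83% TGACNTCA, 20.8% TGACG, 35.7% GGGCGG, 37.4% CCAAT and 13.6% TATAAA. These are matches of letters only.

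Library totals lay between 2585561 and 6975904 counts, apart from the third entinostat library of day 17, which held 554593. In that library counts did not fall in step with the total: the total was 18.6% of the mean of the other libraries of its group, Actb 62.1%, Junb 33.0% and Fos 24.6%, while the other 7 members ranged from 13.8% to 20.9%. Elsewhere Actb did not follow the total either, with 2485 counts at a total of 2842099 and 3265 counts at 6975904. CPM of such abundant genes can therefore depend on depth, and how far this holds for the members was not tested. Genes for olfactory and vomeronasal receptors, not known to be active in T cells, served as a background, and their reads summed to between 3628 and 6901 counts-per-million units (CPM, in this paragraph per library total, for the members after TMM scaling) in the entinostat group of day 17. The sums were 582 to 1863 CPM with vehicle and 586 to 5722 CPM with entinostat at day 10, and 636 to 5290 CPM with vehicle at day 17. At day 10 this background thus differed between the treatments in range. CD8 T cell markers were present in every library, with 7 genes summing to between 1797 and 3913 CPM (Trac was not found by name). Markers of other cells were also present and none was at 0 in all libraries of a group. Summed levels of 6 plasmacytoid dendritic cell markers were 779 to 1652 CPM with vehicle and 252 to 507 CPM with entinostat at day 10, and 1518 to 1993 CPM with vehicle and 246 to 386 CPM with entinostat at day 17. By edgeR's quasi-likelihood test all 6 were lower with entinostat on both days, as were 3 of 7 conventional dendritic cell markers, whose sums were 222 to 624 against 154 to 225 CPM at day 10 and 468 to 985 against 251 to 267 CPM at day 17. Monocyte and macrophage markers summed to 71.4 to 184 CPM with vehicle and 47.6 to 75.8 CPM with entinostat at day 10. Vehicle libraries of day 17 summed to 185 to 272 CPM, against 70.3 to 85.5 CPM with drug. Of 6 tested, 2 were lower on each day, Cd68 and Cd14, and 1 was higher at day 10, Adgre1. Uncalled Lyz2 stood below 0 on both days, with log2 differences of -1.30 ± 0.82 and -1.57 ± 0.79. Above 0 on both days were Csf1r (0.53 ± 0.65 and 0.17 ± 0.64), Mrc1 (0.97 ± 0.70 and 1.18 ± 0.70) and Adgre1 (2.64 ± 0.62 and 0.68 ± 0.57). These markers thus had no common direction. B cell markers (6 tested) had 1 higher and 1 lower at day 10 and 1 lower at day 17, CD4 and regulatory T cell markers (3 tested) 1 and then 2 lower, and tumour and stroma markers (5 tested) none at day 10 and 1 lower at day 17. None of 7 CD8 markers passed edgeR's test with drug on either day, although 6 were higher at day 17 at an unadjusted p under 0.05. At day 17, 7 of 7 were called higher by DESeq2, under cyclic loess scaling and by edgeR without entinostat replicate 4 of day 17. Several members, Irf4 and Batf3 among them, are also made by dendritic cells. The part of these cells in the results was not tested, and in bulk RNA fewer cells of a type cannot be told apart from less RNA per cell.

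Per kilobase of exon, Junb, Fos and Jund were the 3 members of highest mean level in every group and Batf3 the lowest. In vehicle at day 10, Junb averaged 306.5 ± 23.5 CPM per kilobase (SD, n = 4), above Fos at 199.8 ± 11.0, and the libraries of these 2 genes did not overlap. Fos overlapped with Jund at 181.4 ± 11.8 CPM per kilobase, Jund stood clear of Jun at 107.9 ± 17.1, and Jun, Batf at 99.3 ± 8.72 and Fosl2 at 87.5 ± 10.5 overlapped as neighbours. Irf4 and Fosb followed at 33.0 ± 4.15 and 26.0 ± 5.48 CPM per kilobase and overlapped. Fosl2 was number 6 of the 9 with vehicle on either day. With entinostat at day 10 it was number 4, at 105.1 ± 9.74 CPM per kilobase, where its libraries overlapped with those of Batf, the next gene. With entinostat at day 17 it was number 6, at 32.7 ± 2.69, where its libraries overlapped with those of Irf4. Batf3 averaged at most 5.44 CPM per kilobase and exceeded the 95th percentile of the receptor genes in 2 of 16 libraries. The other 8 members exceeded it in all 16.

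**Figure D1:**
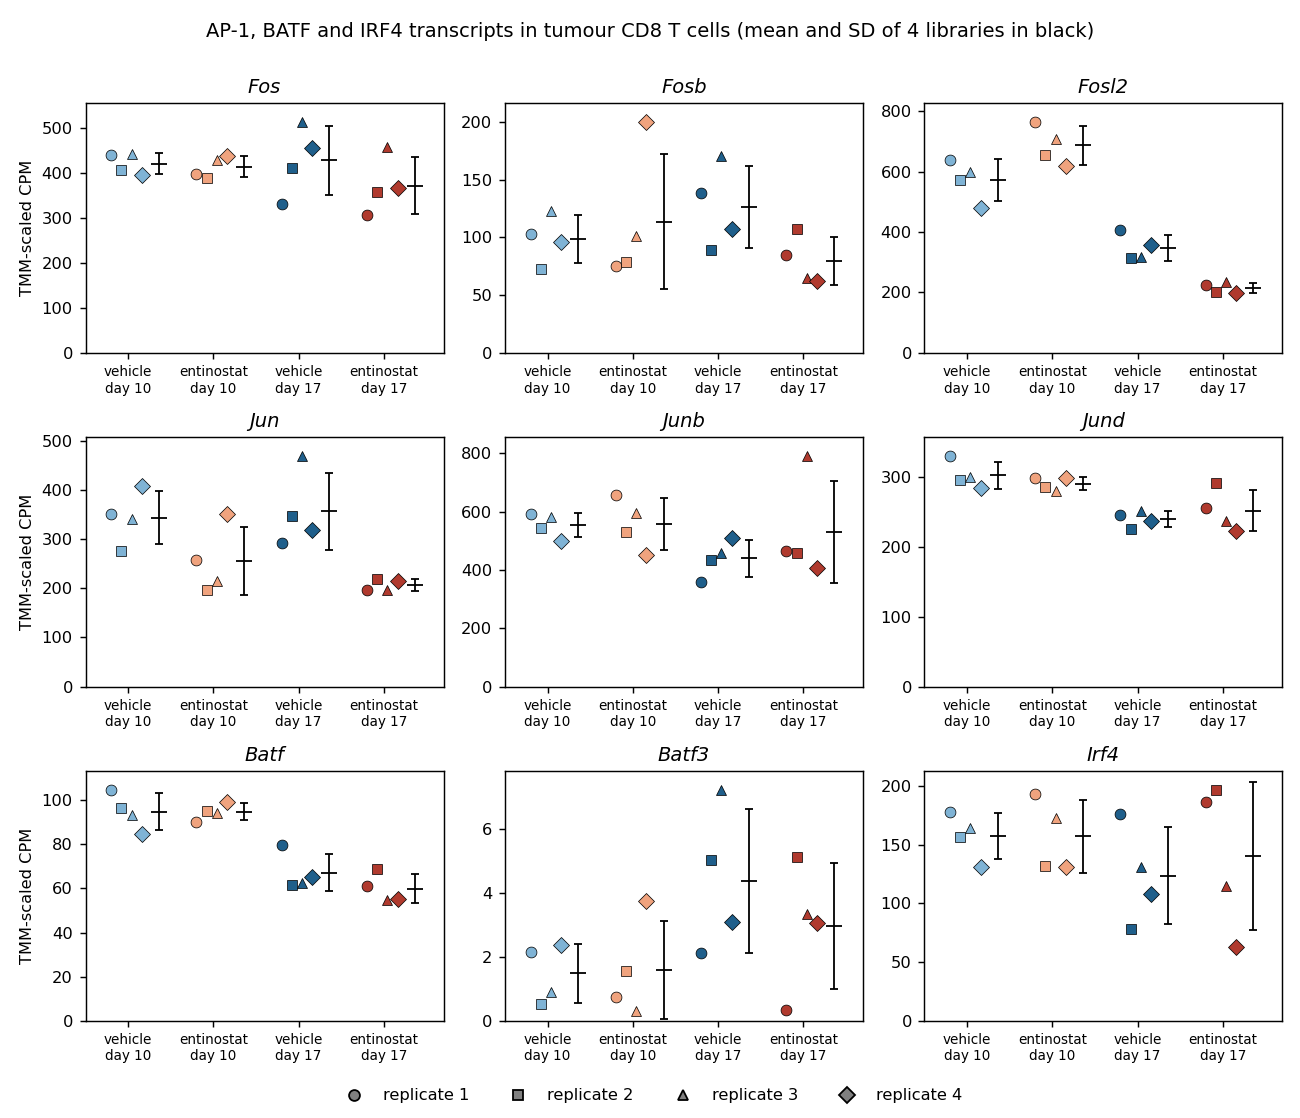
Level of each of the 9 members in each of the 16 libraries, in CPM scaled by edgeR's TMM method (y axis, from 0), by group (x axis). Symbols give the replicate number, and black bars the mean and SD of 4 libraries. Fosl2 stands lowest in the entinostat group of day 17, between 197 and 234 CPM.

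The first comparison asked how the members differed between entinostat and vehicle at day 10. No member passed edgeR's test at an adjusted p of 0.05, 0 higher and 0 lower of 9, beside 7.63% of all tested genes called higher and 6.93% called lower. These background counts, 1328 and 1206 genes, rested on single libraries: they were 376 and 534 without entinostat replicate 3 of day 10, and 2637 and 1514 without its replicate 4. At an unadjusted p under 0.05 there were 2, Fosl2 and Jun; DESeq2 called 1 (Fosl2) and limma-voom called 2 (the same genes). The median log2 fold change of the members was -0.00, against 0.06 for all tested genes. At day 17 the members Fosl2 and Jun fell with entinostat, 2 of 9, and 0 rose, beside 13.0% of all tested genes lower and 5.29% higher. With 1 library left out the background ran from 1356 to 2263 genes lower, beside 2268, and from 437 to 1395 higher, beside 922, the lowest values without vehicle replicate 1 and replicate 3 of day 17, respectively. DESeq2 and limma-voom called no member higher at day 17, but 3 alternatives called Jund higher, as given with that gene. The members' median was -0.22, against -0.01. Among 11992 genes above the receptor background, the scaling left medians of -0.12 at day 10 and -0.17 at day 17, so that differences are to be read relative to these.

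Over time with vehicle, 3 of 9 members fell from day 10 to day 17, Fosl2, Jund and Batf, and 0 rose, beside 3.63% of all tested genes lower and 1.89% higher. With entinostat 2 of 9 fell, Fosl2 and Batf, and 0 rose, beside 10.5% lower and 3.26% higher. The background with vehicle, 632 lower and 329 higher genes, was 165 and 47 without vehicle replicate 3 of day 10, and 1482 and 1217 without vehicle replicate 1 of day 17. DESeq2 and limma-voom called no member higher over time, while cyclic loess scaling called Fos higher with vehicle. The members' medians were -0.33 and -0.20, against 0.13 and 0.03 for all tested genes and -0.04 and -0.10 for the 11992 genes above background. The drug effect itself differed between the days for 1 of 9 members, Fosl2, in the lower direction, and for 0 in the higher, beside 0.253% lower and 0.218% higher of all tested genes. These comparisons share groups of libraries and are not independent of each other. Dosing began at day 7, so day 10 and day 17 stand for 3 and 10 days of dosing. Differences over time thus cannot be told apart from those of longer dosing with drug or vehicle.

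**Figure D2:**
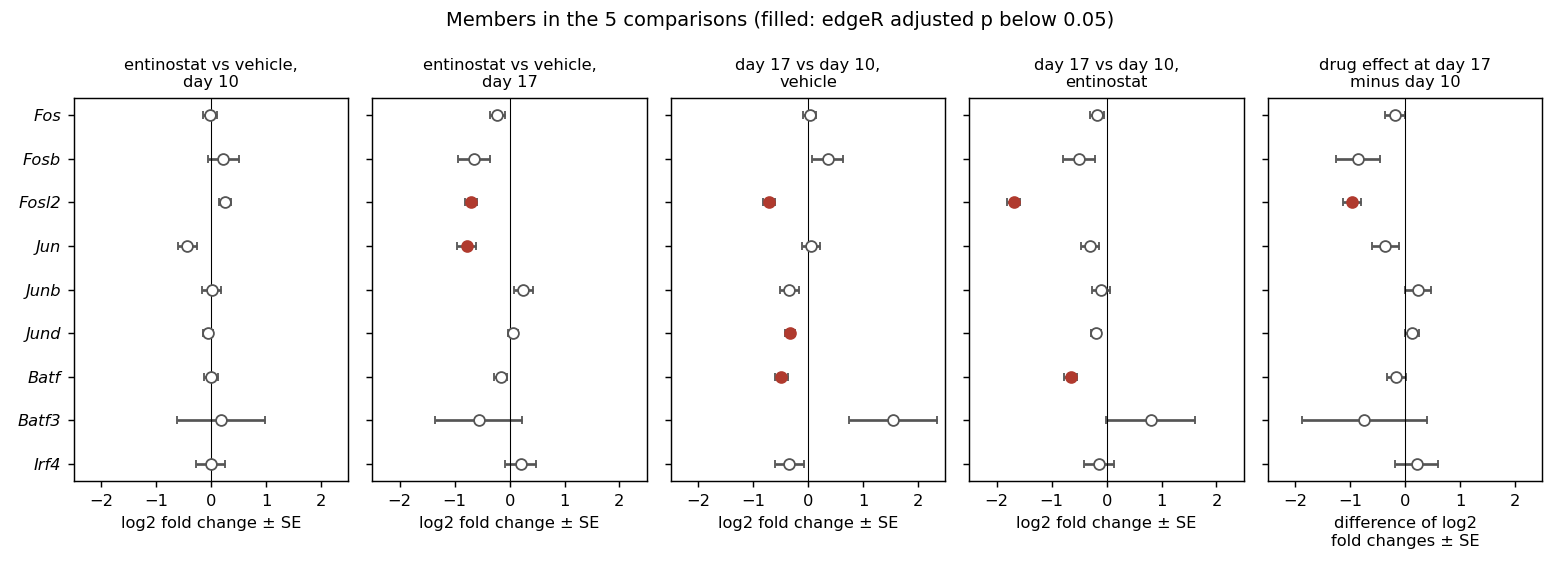
Log2 fold change ± SE of the 9 members in the 5 comparisons, fitted by edgeR over 16 libraries. Filled points have an adjusted p below 0.05. Fosl2 is filled in 4 of the 5 panels, and at day 17 against day 10 with entinostat it lies at -1.69.

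Fosl2 (Entrez 14284, chromosome 5, 32136472 to 32157840, plus strand, GRCm38) encodes FRA2, a FOS family partner of JUN proteins. In vehicle at day 10 the 4 libraries held 639.8, 570.5, 599 and 478 CPM, and with entinostat 765, 656, 709 and 619 CPM. At day 17 vehicle libraries held 406, 313, 316.5 and 356 CPM, and entinostat libraries 223, 202, 234 and 197 CPM. The vehicle and entinostat libraries overlapped at day 10, through 1 entinostat library, and did not at day 17, and on either treatment each day 17 library was below each day 10 library. At day 10 the log2 difference with drug was 0.26 ± 0.11 (SE; edgeR adjusted p = 0.102). At day 17 Fosl2 fell by 0.71 ± 0.11 on the log2 scale with drug, 1.64-fold (edgeR adjusted p = 0.000323). From day 10 to day 17 it fell by 0.72 ± 0.11 with vehicle (edgeR adjusted p = 0.00264) and by 1.69 ± 0.12, 3.23-fold, with entinostat (edgeR adjusted p = 2.80e-07). This last p was the smallest of the 17414 genes in that comparison. The drug effect at day 17 minus that at day 10 was -0.97 ± 0.16 (edgeR adjusted p = 0.0146), rank 9 of all tested genes by p. Without the shallow library the day 17 drug difference was -0.72 and the difference between days -1.01. The day 10 difference, always above 0, passed the threshold in 6 of 29 alternatives, up to 0.52 under cyclic loess scaling (limma adjusted p = 0.000414).

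Counts of 2 genes in the same library can be compared without any scaling between libraries, although abundant genes did not all follow depth alike. The ratio of Fosl2 to Jund counts was 1.68 to 2.00 with vehicle and 2.08 to 2.56 with entinostat at day 10. At day 17 it was 1.26 to 1.65 with vehicle and 0.694 to 0.986 with entinostat. No 2 groups overlapped in this ratio, which was highest with entinostat at day 10 and lowest with entinostat at day 17. Against Fos the ratio was 1.21 to 1.45 and 1.41 to 1.92 at day 10, and 0.615 to 1.22 and 0.511 to 0.728 at day 17, so that vehicle and entinostat overlapped on both days.

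**Figure D3:**
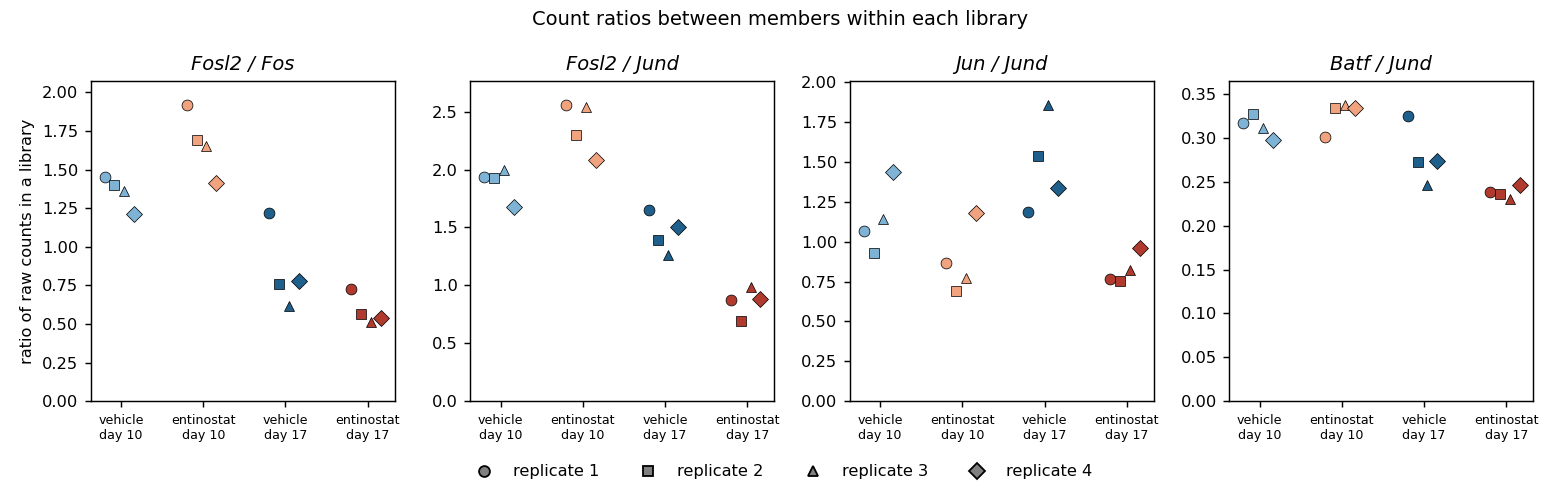
Ratios of raw counts between pairs of members within each library (y axis, from 0), by group (x axis), 4 libraries a group. For Fosl2 per Jund, the day 17 entinostat libraries lie between 0.694 and 0.986 and the day 10 ones between 2.08 and 2.56.

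Fos (Entrez 14281, chromosome 12, 85473890 to 85477274, plus strand) is the classical immediate early partner of JUN. Its libraries held 396 to 442 CPM with vehicle and 389 to 437 CPM with entinostat at day 10, and 332 to 514.5 and 306 to 458 CPM at day 17. The groups overlapped in every comparison, and the log2 differences with drug were -0.02 ± 0.12 at day 10 and -0.22 ± 0.13 at day 17 (edgeR adjusted p = 0.901 and 0.243). Fosb (Entrez 14282, chromosome 7, 19302696 to 19310118, minus strand), the closest relative of Fos, varied more between replicates. With entinostat at day 10 it stood at 75.1, 78.3, 101 and 200.2 CPM, against 72.6 to 123 CPM with vehicle. At day 17 it stood at 139, 88.9, 170.4 and 107 CPM with vehicle and at 84.6, 107, 64.7 and 62.1 CPM with entinostat, where the ranges overlapped. The day 17 drug difference of Fosb was -0.64 ± 0.29 (edgeR adjusted p = 0.126), and it was called by limma-voom at -0.64 (adjusted p = 0.0432) and by edgeR without entinostat replicate 4 of day 10 at -0.61 (adjusted p = 0.0439). Fos was called lower at day 17 by limma-voom, at -0.40 (adjusted p = 0.0134). Over time with vehicle Fos stood at 0.03 ± 0.12 and was called higher under cyclic loess scaling, at 0.41 (limma adjusted p = 0.0480).

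Jun (Entrez 16476, chromosome 4, 95049036 to 95052222, minus strand) encodes c-JUN, the common partner of FOS and BATF proteins. Vehicle libraries held 352, 275, 340.4 and 408 CPM at day 10 and 292, 347, 469.7 and 319.6 CPM at day 17. Entinostat libraries held 258, 197, 215.5 and 351 CPM at day 10 and 197, 219, 196 and 215 CPM at day 17. At day 10 the ranges overlapped through 1 high entinostat library, the deepest of its group, and at day 17 they did not overlap. At day 17 Jun fell by 0.78 ± 0.17 on the log2 scale with drug, 1.72-fold (edgeR adjusted p = 0.00452), and by 0.73 without the shallow library (adjusted p = 0.0167). At day 10 the log2 difference was -0.43 ± 0.17 (edgeR adjusted p = 0.0907), and without the high library it was -0.59 (edgeR adjusted p = 0.0103). With equal replicate numbers as a block within each day it was called at -0.45 (edgeR adjusted p = 0.0452), although these numbers were not taken to pair the libraries. From day 10 to day 17 the log2 difference of Jun was 0.05 ± 0.17 with vehicle and -0.30 ± 0.17 with entinostat, neither past the test. The drug effects of the 2 days differed by -0.36 ± 0.24, which did not pass (edgeR adjusted p = 0.572). Per Jund count, Jun stood at 1.19 to 1.86 with vehicle and 0.753 to 0.963 with entinostat at day 17.

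Junb and Jund lie on chromosome 8 (Entrez 16477, 84976909 to 84978748, minus strand; Entrez 16478, 70697739 to 70700616, plus strand). JUNB is an inducible JUN protein and a frequent partner of BATF, while JUND is made more steadily. Junb held 499 to 592 CPM with vehicle and 451 to 657 CPM with entinostat at day 10. At day 17 it held 357, 433, 457 and 511 CPM with vehicle and 464, 457, 791 and 408 CPM with entinostat, the value of 791 coming from the shallow library. No comparison of Junb passed the test, with log2 differences of 0.01 ± 0.17 and 0.25 ± 0.17 with drug and -0.34 ± 0.17 and -0.10 ± 0.17 over time. Jund held 330.3, 296, 299.6 and 284 CPM with vehicle and 299, 285, 279 and 298 CPM with entinostat at day 10, which overlapped. At day 17 it held 245, 225.5, 252 and 238 CPM with vehicle and 256, 291, 237 and 223 CPM with entinostat, which overlapped too. The day 17 drug difference of Jund was 0.07 ± 0.09 (edgeR adjusted p = 0.598). It was called higher with a minimum count of 50 at 0.24 (edgeR adjusted p = 0.0348), with genes above receptor background at 0.24 (edgeR adjusted p = 0.0395) and under cyclic loess scaling at 0.23 (limma adjusted p = 0.0118). With vehicle Jund fell by 0.33 ± 0.09 from day 10 to day 17, and the ranges did not overlap (edgeR adjusted p = 0.0366). This call was lost in 11 of 28 alternatives, and under cyclic loess scaling the difference was -0.04 (limma adjusted p = 0.734). With entinostat the difference over time was -0.20 ± 0.09 (edgeR adjusted p = 0.156), and without entinostat replicate 2 of day 17 it was called at -0.30 (edgeR adjusted p = 0.0274).

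Batf (Entrez 53314, chromosome 12, 85686720 to 85709087, plus strand) pairs with JUN proteins and is needed for effector CD8 T cells. Its day 10 libraries held 105, 96.7, 93.2 and 84.7 CPM with vehicle and 90.0, 95.2, 94.4 and 99.4 CPM with entinostat. At day 17 they held 79.7, 61.7, 62.3 and 65.2 CPM with vehicle and 61.1, 68.7, 54.7 and 55.0 CPM with entinostat. The treatments overlapped on each day, while every day 17 library lay below every day 10 library. Batf fell over time by 0.49 ± 0.12 on the log2 scale with vehicle (edgeR adjusted p = 0.0222) and by 0.65 ± 0.12, 1.57-fold, with entinostat (edgeR adjusted p = 0.00141). The vehicle call was lost in 6 of 28 alternatives, 5 of them leaving out 1 vehicle library, with adjusted p up to 0.0710. The entinostat call held in all 28, between -0.74 and -0.48. With drug the log2 difference was -0.00 ± 0.12 at day 10 and -0.16 ± 0.12 at day 17, neither past the test.

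Batf3 (Entrez 381319, chromosome 1, 191098414 to 191108943, plus strand), best known for its need in cross-presenting dendritic cells, had between 1 and 28 counts a library. Its group means were 1.47 ± 0.910 and 1.59 ± 1.53 CPM at day 10 and 4.36 ± 2.25 and 2.95 ± 1.98 CPM at day 17, vehicle first (SD, n = 4). At this depth no difference in Batf3 was detectable by edgeR: the largest, 1.54 ± 0.80 over time with vehicle, had an adjusted p of 0.228. At day 17 limma-voom called Batf3 lower with drug at -1.91 (adjusted p = 0.0476) and cyclic loess scaling at -2.78 (limma adjusted p = 0.00999), beside the lower dendritic cell marker sums given above. Of the conventional dendritic cell markers, edgeR called Flt3, Cd209a and Wdfy4 lower at day 17. It did not call Xcr1 (-0.60 ± 0.27), Clec9a (-1.14 ± 0.60), Itgax (-0.52 ± 0.31) or Zbtb46 (-0.64 ± 0.37). The part of these cells in the Batf3 values was not tested. Irf4 (Entrez 16364, chromosome 13, 30749233 to 30766981, plus strand) held 131 to 178 CPM with vehicle and 131 to 193 CPM with entinostat at day 10. At day 17 it held 176, 78.4, 131 and 108 CPM with vehicle and 186, 197, 114.5 and 63.1 CPM with entinostat and its groups overlapped. No comparison of Irf4 passed the test, and each drug or time difference had an SE of 0.27 or 0.28. The log2 differences with drug were -0.01 ± 0.27 at day 10 and 0.20 ± 0.28 at day 17.

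Across the 16 libraries, log2 CPM of Fosl2 correlated with that of Batf at r = 0.92 and of Batf with that of Jund at r = 0.86, while Jun and Fosl2 gave r = 0.26. These describe the libraries, which share groups and depth, and carry no p. Of 9443 genes of at least 16 CPM on average, those most like Fosl2 were Gna13 (r = 0.979), which encodes a G protein subunit, Dusp10 (0.978), a MAP kinase phosphatase, and Tcp11l2 (0.974). Nearest to Jun were Laptm4a (0.941), Net1 (0.938) and Scpep1 (0.935), and nearest to Batf were Madd (0.970), Cd274 (0.969), which encodes PD-L1, and Pde4d (0.965). Junb was closest to Tnfaip3 (0.986), an NF-kB target that encodes A20, Ifngr1 (0.973) and Cd53 (0.970), and Jund to the cytokine gene Tnf (0.942), Cdk17 (0.914) and Cyld (0.912). For Fos (Prkab2 0.833, Nptn 0.751, Klf2 0.745), Fosb (Tmem8 0.880, Pde4a 0.815, Arid3a 0.802), Irf4 (Sh3kbp1 0.863, Plk3 0.830, Sirt2 0.814) and Batf3 (Trim3 0.854, Timp3 0.797, Hcfc1r1 0.795) the likeness was lower.

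The signals that switch these genes on were described by lists of pathway genes. Of 10 genes from the antigen receptor to NF-kB, 4 were lower with entinostat at day 10 and 7 at day 17, none higher, with medians of -0.31 and -0.47, beside the 6.93% and 13.0% of all tested genes called lower. The day 10 count was 2 without any 1 library of day 10 other than entinostat replicate 4. Nfkb1, the p105 precursor gene, fell on both days, at -0.74 ± 0.14 and -0.94 ± 0.15 (edgeR adjusted p = 0.00392 and 0.000293). Of 17 RAS and MAP kinase genes 3 were lower on each day, with medians of -0.26 and -0.12. The day 17 count lies near the 13.0% of all tested genes, and it was 1 without entinostat replicate 1, 3 or 4 or vehicle replicate 1 or 3 of day 17. The day 10 count was 1 without entinostat replicate 1 or 3. Map3k1, a kinase upstream of JNK, was in both counts, at -0.47 ± 0.11 and -0.59 ± 0.12. Under cyclic loess scaling no MAP kinase gene was lower and 3 were higher at day 17, so this list's direction depended on the scaling. That scaling gave 4 lower genes of the NF-kB list at day 17, and over all alternatives the day 10 counts of lower genes ran from 2 to 6 for NF-kB and from 0 to 7 for the MAP kinases. Of 9 NFAT and calcineurin genes 1 and then 3 were lower, with medians of -0.22 and -0.36. Nfatc2 was at -0.49 ± 0.14 at day 17 and was called in 18 of 29 alternatives. Without entinostat replicate 1, 3 or 4 or vehicle replicate 1 of day 17 the day 17 count was 1, and without 6 of the 8 libraries of day 10, each in turn, the day 10 count was 0. Cyclic loess scaling gave 1 lower and 1 higher NFAT or calcineurin gene at day 17. Of 8 genes for SRF, its partners and CREB factors, which bind FOS family promoters, 2 and then 3 were lower, with medians of -0.35 and -0.27. Mkl1, an SRF coactivator, was at -0.53 ± 0.15 (called in 21 of 29 alternatives) and -0.77 ± 0.15. The day 10 count was 0 or 1 without any 1 library of day 10 other than entinostat replicate 4. Here cyclic loess scaling gave 2 lower and 2 higher genes at day 17.

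Among relatives of the members, 15 other leucine zipper genes had 0 calls at day 10 by edgeR, 4 lower at an unadjusted p under 0.05, 0 by DESeq2 and 5 by limma-voom. At day 17, 7 were lower and none higher, with a median of -0.57, beside 13.0% of all tested genes lower, and DESeq2 gave 4. The count of 7 was 3 without entinostat replicate 4 of day 17, and 4 without its replicate 1 or 3, vehicle replicate 1 of day 10 or entinostat replicate 2 of day 10. Mafk, a small MAF partner factor, fell by 0.62 ± 0.12, and Nfe2l2, which encodes the stress factor NRF2, by 0.70 ± 0.16 (edgeR adjusted p = 0.00116 and 0.00586). Of 8 other interferon regulatory factors 3 were lower at day 10 and 5 at day 17, with medians of -0.35 and -0.52, beside 6.93% and 13.0% of all tested genes. Over the alternatives the day 10 count ran from 2 to 6, and Irf9, which was in it, was called in 7 of 29. The day 17 count was 3 without entinostat replicate 3 or 4 or vehicle replicate 3 of day 17. Irf7, a driver of type I interferon that plasmacytoid dendritic cells hold at a high level, fell on both days, at -0.80 ± 0.15 and -1.71 ± 0.16 (edgeR adjusted p = 0.00365 and 1.75e-06). Irf8, needed by dendritic cells, fell likewise, at -1.18 ± 0.18 and -0.59 ± 0.17 (edgeR adjusted p = 0.000681 and 0.0252), beside the fall in plasmacytoid dendritic cell markers given above, whose part was not tested. The day 17 call of Irf8 held in 20 of 29 alternatives. From day 10 to day 17 with entinostat Irf8 rose by 0.79 ± 0.18 (edgeR adjusted p = 0.00574). Over the same days 3 of 6 plasmacytoid dendritic cell markers were lower and 0 higher, the 3 running from 0 to 3 over the alternatives. Of 18 other immediate early genes none was called at day 10 by edgeR (1 higher and 3 lower at an unadjusted p under 0.05, 0 by DESeq2, 3 lower by limma-voom). At day 17, 4 were lower, beside 13.0% of all tested genes. Over the alternatives this count ran from 2 to 5, and DESeq2 and cyclic loess scaling each called 1 gene higher. The 4 lower genes were Ier5 at -0.76 ± 0.11, Nr4a3 at -1.05 ± 0.26, Zfp36 at -0.50 ± 0.12 and Klf4 at -1.03 ± 0.32, the last called in 17 of 29 alternatives. Egr1, another classical immediate early gene, was at 0.19 and 0.16 and not called.

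**Figure D4:**
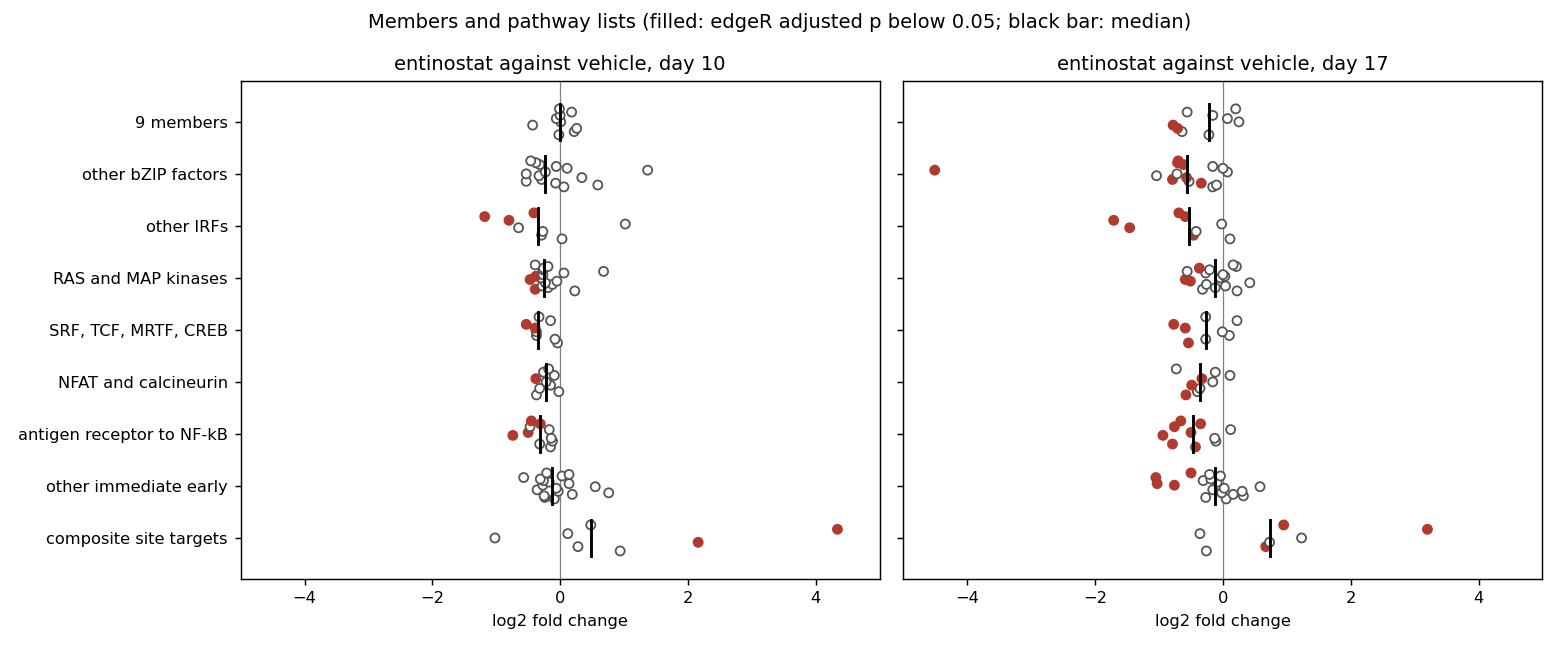
Log2 fold change with entinostat of each member and each tested gene of 8 pathway lists, at day 10 and day 17 (x axis), with list medians as black bars and genes of edgeR adjusted p below 0.05 filled. At day 17 the other leucine zipper genes have a median of -0.57 and the composite site targets a median of 0.73.

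Of 7 tested genes known as targets of composite AP-1 sites with NFAT or IRF4, 2 were higher with entinostat at day 10 and 3 at day 17 and none lower, with medians of 0.48 and 0.73, beside the 7.63% and 5.29% of all tested genes. Prdm1, which encodes the effector factor BLIMP-1, was higher at day 17 by 0.95 ± 0.22 (edgeR adjusted p = 0.00570), with means of 81.5 and 154.8 CPM. Ctla4, an inhibitory receptor gene, was higher by 0.67 ± 0.12 (edgeR adjusted p = 0.000776), with means of 247 and 396 CPM. Il21 was called on both days at means of 0.211 against 5.02 CPM and 0.435 against 4.50 CPM. In the entinostat libraries the receptor genes' 95th percentile was 1.83 to 14.2 CPM at day 10 and 8.91 to 16.2 CPM at day 17. The entinostat mean of Il21 thus lay within this background range at day 10 and below it at day 17. Il10 was called at day 10, at 4.78 against 21.6 CPM. The day 10 count ran from 0 to 4 over the alternatives, with 0 without entinostat replicate 1 of day 10 and 1 without its replicate 3 or vehicle replicate 1 or 3. Il21 was called in 20 of 26 alternatives at day 10 and 15 of 26 at day 17. From day 10 to day 17 with vehicle, 7 of 18 immediate early genes and 5 of 17 MAP kinase genes fell, beside 3.63% of all tested genes. These counts were 1 and 2 under cyclic loess scaling and also without vehicle replicate 3 of day 10. Without vehicle replicate 1 of day 17 the MAP kinase count was 10. With entinostat these counts were 8 and 4, beside 7 of 15 leucine zipper and 7 of 10 NF-kB pathway genes, the last 4 without entinostat replicate 4 of day 17. Of all tested genes 10.5% were lower over time with entinostat. Crem, a CREB family gene, fell on both treatments, at -0.82 with vehicle and -1.01 with entinostat (edgeR adjusted p = 0.00181 and 3.46e-05). For the difference of the drug effect between days no gene of these 8 lists was called by edgeR, where the MAP kinase list held 4 higher and 2 lower genes at an unadjusted p under 0.05.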

How the data were processed

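RNA of sorted CD8 T cells was made into cDNA with SMART-seq v4 and into libraries with Nextera XT, per the labels' protocols. The kit amplifies by PCR, without marking strand or single molecules. The deposited values are whole-number exon counts per gene, not scaled, per the labels and the file headers. The submitters' processing notes name STAR and mm10. Which program and annotation did the counting, and whether duplicates were removed, is not given in the sources used here. Antisense overlap cannot be separated without strand. The 9 members and all lists were chosen with earlier results of these data known.

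From the counts, TMM-scaled CPM were computed, genes were filtered with filterByExpr (minimum count 10), and edgeR 4.0.16 (R 4.3.3) fitted group means by quasi-likelihood to all 16 libraries. P-values were adjusted by Benjamini-Hochberg over 17414 genes, with a threshold of 0.05. Named genes were the 9 members, up to 4 genes of smallest p per list and day, and the 3 genes most correlated with each member. Some genes this rule names are not reported here. Egr1 was named after its values were seen. Alternatives included limma 3.58.1 (voom, and cyclic loess scaling) and DESeq2 1.42.0. Lengths were exon unions from GENCODE M21 (GRCm38). Positions and promoters came from RefSeq (GRCm38.p6), which held all 9 members. Counts of near-identical genes may be shared. The fitting was tested on simulated data.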

Additional observations from a re-analysis of the deposited data

Results flagged for a closer look

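The drug effect on Fosl2 differed between the 2 days. The log2 difference with entinostat was 0.26 ± 0.11 at day 10 and -0.71 ± 0.11 at day 17, and the day 17 effect minus the day 10 effect was -0.97 ± 0.16 (edgeR adjusted p = 0.0146).

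Junb in the third entinostat library of day 17 stood at 791.3 CPM, while the other libraries of its group held 408 to 464 CPM. Its gap to the nearest library was 0.853 of the group's range, above Dixon's critical value for 4 libraries. This was the 1 such library among 36 groups of 4 values, and chance alone gives about 1 in 20. The library is the shallowest, with 554593 counts, and its Junb count was 33.0% of the mean of the other libraries of its group, beside 18.6% for its total. Without it the log2 difference of Junb with drug at day 17 was 0.04 instead of 0.25, and neither passed the test.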

How the results depend on the processing

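The Fosl2 calls at day 17 with drug, over time on either treatment and between days kept direction and threshold in every alternative, as did Jun at day 17 (29 alternatives) and Batf over time with entinostat (28). Fosl2 lay between -0.76 and -0.49, -0.83 and -0.47, -1.76 and -1.47, and -1.04 and -0.89 respectively, and Jun between -0.91 and -0.61. Depth limits Batf3, with 1 to 28 counts a library.

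At day 10 the count of members called with drug, 0, became 1 under library size alone (Fosl2), a minimum count of 50 (Fosl2), genes above receptor background (Fosl2), DESeq2 (Fosl2), cyclic loess scaling (Fosl2), the replicate block within each day (Jun) and without the 2 deepest libraries (Jun), and 2 under limma-voom. Leaving out 1 library gave 0 to 1, the 1 being Jun without entinostat replicate 4. At day 17 the count of 2 became 5 under limma-voom (Fos, Fosb and Batf3 lower in addition) and 4 under cyclic loess scaling (Batf3 lower and Jund higher in addition). It became 3 with a minimum count of 50 and with genes above receptor background (Jund higher in both) and without entinostat replicate 4 of day 10 (Fosb lower). Over time with vehicle the count of 3 became 1 under library size alone, and 1 to 3 with 1 library left out: it was 1 without vehicle replicate 1, 2 or 3 of day 10 or replicate 2 or 3 of day 17. The cause was not tested.

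Values that changed sign were all uncalled in both settings. For drug at day 10 they were as follows. RLE scaling gave Fos 0.03, Batf 0.05 and Irf4 0.05, as did DESeq2 with 0.03, 0.05 and 0.05. Library size alone gave Fos 0.14, Jund 0.10, Batf 0.16 and Irf4 0.16. A minimum count of 50 gave Fos 0.10, Jund 0.07, Batf 0.13 and Irf4 0.12, and genes above receptor background gave Fos 0.09, Jund 0.06, Batf 0.11 and Irf4 0.11. Only the groups compared gave Fos 0.08, Jund 0.04, Batf 0.10 and Irf4 0.10. No low-count filter gave Junb -0.02. Limma-voom gave Fosb -0.19, Batf3 -0.79 and Irf4 0.06. The receptor read covariate gave Junb -0.16, Batf 0.08 and Irf4 0.10. Cyclic loess scaling gave Fos 0.18, Jund 0.16, Batf 0.22, Batf3 -2.38 and Irf4 0.30. Without the 2 deepest libraries Fosb was -0.22, Batf3 -0.69 and Irf4 0.07. With 1 library left out, Fos ran from -0.05 to 0.05, Fosb from -0.18 to 0.42, Junb from -0.08 to 0.13, Jund from -0.08 to 0.02, Batf from -0.03 to 0.08, Batf3 from -0.68 to 0.53 and Irf4 from -0.12 to 0.12.

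For drug at day 17, Batf was 0.02 with a minimum count of 50, 0.01 with genes above receptor background and 0.16 under cyclic loess scaling. Over time with vehicle, Fos was -0.03 with the receptor read covariate and Junb 0.03 under cyclic loess scaling, and with 1 library left out Fos ran from -0.08 to 0.10 and Jun from -0.11 to 0.12. Over time with entinostat, Junb was 0.02 under library size alone, 0.04 with a minimum count of 50 and 0.03 with genes above receptor background, Jun was 0.07 and Jund 0.03 under cyclic loess scaling, and Irf4 ran from -0.37 to 0.10 with 1 library left out. Between days, Junb was -0.08 under cyclic loess scaling, Batf3 ran from -1.26 to 0.15 and Irf4 from -0.01 to 0.46 with 1 library left out.

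Equal replicate numbers were not taken to pair the libraries: at day 10 their deviations correlated at 0.180, 0.0329, 0.114 and 0.0572 over all tested genes. In no pair of groups were all 4 above 0.1 over these genes. Over 11992 genes above background the day 10 values were 0.239, 0.145, 0.195 and 0.140, and in no other pair of groups were all 4 above 0.1. Even so, not every library of day 10 matched its own number best. With the replicate block, Batf was 0.01 and Batf3 -0.11 for drug at day 10, and no member's call changed. With the replicate block within each day, Jun was called at day 10 at -0.45 (edgeR adjusted p = 0.0452), Junb was -0.00, Batf 0.00 and Batf3 -0.04, and no other call changed. Cyclic loess scaling and leaving out the 2 deepest libraries were added after the data were seen.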
